A study of Mus musculus with 4 samples.

Results

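Rorb Kirrel3 neurons are excitatory neurons of the embryonic mouse neocortex that held RNA of Rorb and of Kirrel3 and little RNA of the genes that mark other neuron classes. Rorb encodes a nuclear receptor known from layer 4 of the mature cortex, and Kirrel3 encodes an adhesion protein of synapses. The cells were selected one by one on UMI counts, in which 1 UMI (unique molecular identifier) stands for 1 captured RNA molecule. A selected cell had at least 2 UMIs of Rorb, at least 2 of Kirrel3 and at least 1 of Neurod6, a transcription factor of cortical excitatory neurons. It had no UMI of Hes5 (radial glia) or Gad2 (interneurons), at most 1 of Hs3st4 (layer 6), at most 2 of Unc5d (migrating neurons) and at most 1 of Neurod1 (newborn neurons). It also showed fewer than 2 of the subplate genes Nxph4, Nr4a2, Ccn2, Cplx3 and Moxd1, and at most 1 UMI in all of Krt8, Cytl1 and Lbhd2. This left 1183 of 28672 barcodes that passed the quality limits, or 4.13%, and 7.83% of 15110 Neurod6 neurons. The Neurod6 neurons are the cells that met the same conditions apart from those on Rorb, Kirrel3, Hs3st4 and Unc5d. All statements below on what sets these cells apart from other cells are descriptions with no test, because the selection fixed that contrast. The tests compare i4F-Nes with CTR, which the selection did not use.

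i4F-Nes embryos had the genotype Nestin-Cre;i4F;ROSA-STOP-rtTA, in which Nestin-Cre, a recombinase driven in neural progenitors, removes the stop before the doxycycline-dependent activator rtTA. The i4F cassette then expresses the Yamanaka reprogramming factors Pou5f1, Sox2, Klf4 and Myc while doxycycline is present. CTR embryos were littermates with the genotype i4F;ROSA-STOP-rtTA, so they carried the cassette and the silent activator without Cre. Dams of both groups drank doxycycline at 0.2 mg/ml over 4 days that began at E10.5 and ended at E14.5, and the rostral neocortex was taken at E15.5. The series holds 2 libraries per group, and the labels do not say how many embryos went into a library or whether replicates came from separate litters, so p-values measure only the spread between these libraries.

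Excitatory neurons of the neocortex are born in sequence, those of the deep layers first and those of the upper layers later. Fezf2 and its target Bcl11b (also called Ctip2) direct layer 5 neurons that project to the brainstem and spinal cord. Tle4, Foxp2 and Zfpm2 mark corticothalamic neurons of layer 6, and Cux1 and Cux2 mark the upper layers. In the mature cortex Rorb marks layer 4 and part of layer 5.

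The 4 libraries held 6456 to 8125 barcodes that passed the limits, with library medians of 11697 to 15629 UMIs per barcode. Pairs of libraries shared 20 to 31 barcode sequences. Among the selected cells, Xist, the RNA that coats the inactive X chromosome, was at 911 and 1113 CPM (UMIs of the gene scaled to the summed UMIs of the library's cells) in i4F-Nes, against 0 and 1137 CPM in CTR. The Y-linked gene Ddx3y reached 25.2 CPM in CTR replicate 1 and at most 1.36 CPM elsewhere. Haemoglobin and other erythroid RNAs summed to 51.5 and 3465 CPM in the selected cells of i4F-Nes and to 21.5 and 9.55 CPM in those of CTR, so i4F-Nes replicate 2 stood apart. The part of these differences in the group comparison below was not tested.

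There were 298 and 372 Rorb Kirrel3 neurons in the i4F-Nes libraries, and 137 and 376 in the CTR libraries. Their median depth was 19791 and 18675 UMIs in i4F-Nes and 20804 and 18617 UMIs in CTR, above the median of the other Neurod6 neurons in each library (14754 and 10142 UMIs in i4F-Nes, 15022 and 12280 UMIs in CTR). Deeper cells meet the minimum UMI counts of the rule more easily and its upper limits less easily. The part of each in the depth of the selected cells was not tested. Between 1 and 5 of them per library lay among the barcodes with the highest doublet scores.

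The selected cells carried the RNA set of cortical excitatory neurons. Neurod6 stood at 1055 and 1221 CPM in i4F-Nes, against 977 and 1212 CPM in CTR. Neurod2, a related factor that was not part of the rule, stood at 567 and 370.3 CPM in i4F-Nes, against 596 and 443 CPM in CTR. The defining genes of interneurons and of vascular and immune cells were at or near 0. Gad1, the other GABA-synthesising enzyme, was at most 0.171 CPM in any library, the interneuron list of 17 genes summed to 22.1 to 58.1 CPM, and the vascular and immune list of 18 genes summed to 3.46 to 5.90 CPM, with Cdh5, Col3a1, Dcn and Aif1 at 0 throughout. Radial glia RNAs, like the erythroid RNAs given above, were not absent. The radial glia list of 16 genes, in which Hes5 was at 0 by the rule, summed to 1206 and 961 CPM in i4F-Nes and to 1610 and 1174 CPM in CTR, and the glutamate transporter gene Slc1a3 accounted for 105 and 39.3 CPM in i4F-Nes and 129 and 68.1 CPM in CTR.

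Rorb (GRCm38 chromosome 19, 18930605 to 19111196, minus strand) was at 350.3 and 596 CPM in i4F-Nes cells, against 217 and 421 CPM in CTR cells. A median selected cell held 4 and 5 Rorb UMIs in the i4F-Nes libraries, as in the CTR libraries, and 1 cell reached 91. Kirrel3 (chromosome 9, 34485894 to 35036716, plus strand) was at 2292 and 1709 CPM in i4F-Nes, against 2401 and 1587 CPM in CTR. Of the marker genes proposed for these cells that the rule did not use, Sgcz, a sarcoglycan gene (chromosome 8, 37522298 to 38661508), stood at 170 and 128 CPM in i4F-Nes, against 113 and 132 CPM in CTR. Ryr3, a calcium release channel gene (chromosome 2, 112631355 to 113217096), stood at 255 and 109.7 CPM in i4F-Nes, against 428 and 174 CPM in CTR. Lrrtm3, a synaptic adhesion gene (chromosome 10, 63928472 to 64090277), stood at 194 and 118 CPM in i4F-Nes, against 221 and 87.6 CPM in CTR.

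These 5 markers did not single the cells out among deep-layer neurons. In neurons with at least 2 Hs3st4 UMIs, which hold most of the layer 6 genes, Rorb ranged over the 4 libraries from 252 to 807 CPM, Kirrel3 from 2100 to 2578 CPM, Sgcz from 222 to 338 CPM, Ryr3 from 185 to 486 CPM and Lrrtm3 from 249 to 391 CPM. In each of the 4 libraries the Hs3st4 neurons were above the selected cells for Rorb, Sgcz, Ryr3 and Lrrtm3. The same is seen in how the rule worked. Of the cells with Rorb, Kirrel3 and Neurod6 at the required levels (1642 and 1199 in i4F-Nes, 727 and 1364 in CTR), 68.3% and 53.4% in i4F-Nes and 60.4% and 58.8% in CTR were left out for having 2 or more Hs3st4 UMIs. The selected cells were 18.1% and 31.0% of them in i4F-Nes and 18.8% and 27.6% in CTR. They are therefore the Rorb Kirrel3 neurons with at most 1 UMI of the layer 6 gene Hs3st4, narrowed further by the limits on the other genes, and not the only neurons with Rorb.

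The 3 layer 4 markers other than Rorb were low. Rora, a nuclear receptor related to Rorb that accompanies it in layer 4, was at 15.4 and 17.0 CPM in i4F-Nes, against 18.7 and 11.7 CPM in CTR. In the neurons with at least 3 Unc5d UMIs, in which Cux1 and Cux2 were highest, Rora ranged from 52.8 to 90.7 CPM. Whrn, a scaffold protein gene, stayed between 1.26 and 4.10 CPM, and Kcnab1, a potassium channel subunit gene, between 3.75 and 9.27 CPM. Of 14 listed layer 4 genes, 8 reached 10 CPM in every library. The list as a whole was not low. None of the 9 that could be compared was more than 2-fold higher than in the other Neurod6 neurons in all 4 libraries and 1 was more than 2-fold lower (Tshz1), beside 0.187% and 1.31% of all 8569 genes compared. The median log2 ratio was −0.08, beside −0.04 over all genes, and against the Hs3st4 neurons it was 0.55, beside −0.02 over all genes. Cdh8, a cadherin gene of that list, was at 195 and 340.3 CPM in i4F-Nes, against 163 and 283 CPM in CTR.

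Upper-layer genes divided. Plxna4, a semaphorin co-receptor gene, was at 581 and 781 CPM in i4F-Nes, against 420.3 and 624 CPM in CTR, below the 828 to 1056 CPM of the Unc5d neurons and above the 77.9 to 171 CPM of the Hs3st4 neurons. Cux2 was low, at 31.4 and 44.1 CPM in i4F-Nes, compared with 37.5 and 42.0 CPM in CTR, and at 204 to 272 CPM in the Unc5d neurons. Cux1 was at 138 and 202 CPM in i4F-Nes, compared with 98.1 and 179 CPM in CTR, and at 385 to 559 CPM in the Unc5d neurons. Inhba, which encodes an activin subunit, was at 43.2 and 115 CPM in i4F-Nes, against 29.6 and 83.7 CPM in CTR, and at most 26.4 CPM in any library of the other gates of Neurod6 neurons. It was not particular to cells with Rorb. Cells that met the rest of the rule with no Rorb UMI had Inhba at 42.9 and 56.6 CPM in i4F-Nes, against 40.3 and 70.6 CPM in CTR.

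Layer 5 genes were present next to Plxna4. Fezf2 (chromosome 14, 12342094 to 12348189) was at 290.1 and 126 CPM in i4F-Nes, against 359.6 and 193 CPM in CTR, above the 29.2 to 93.7 CPM of the Unc5d neurons in every library. Bcl11b (chromosome 12, 107910403 to 108003602) was at 397 and 282 CPM in i4F-Nes, against 416 and 312 CPM in CTR, below the 704 to 929 CPM of the Hs3st4 neurons and above the 137 to 232 CPM of the Unc5d neurons. Ldb2, a LIM-domain binding cofactor gene of layer 5 neurons, was at 778 and 699.6 CPM in i4F-Nes, compared with 709 and 679.8 CPM in CTR, and at 100.4 to 143 CPM in the Unc5d neurons. Tox, an HMG-box factor gene, was at 783 and 622 CPM in i4F-Nes, compared with 604 and 655 CPM in CTR, and at 78.1 to 134 CPM in the Unc5d neurons. Etv1 and Crym, marks of mature layer 5 neurons, were at most 12.1 and 5.11 CPM in any library. Of 19 layer 5 genes, 14 could be compared with the other Neurod6 neurons, and 3 were more than 2-fold higher in all 4 libraries (Ldb2, Nefl and S100a10) and 1 lower (Pcp4). Over all 8569 genes compared, 0.187% were higher and 1.31% lower by that measure. The median log2 ratio of the layer 5 genes was 0.42, beside −0.04 over all genes.

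Layer 6 genes were low, Hs3st4 by the rule. The others were not named in the rule, but its limit on Hs3st4 left out the neurons that hold most of them. Their low levels are thus not independent of the selection. Tle4, a corepressor gene, was at 28.0 and 29.1 CPM in i4F-Nes, compared with 62.7 and 34.1 CPM in CTR, and at 616 to 820.0 CPM in the Hs3st4 neurons. Zfpm2 was at 58.7 and 61.9 CPM in i4F-Nes, compared with 61.0 and 56.3 CPM in CTR, and at 802 to 913 CPM in the Hs3st4 neurons. Foxp2 was at 113 and 93.5 CPM in i4F-Nes, compared with 115 and 88.1 CPM in CTR, and at 508 to 913 CPM in the Hs3st4 neurons. Sox5, a factor of deep-layer neurons in general, was at 2444 and 1512 CPM in i4F-Nes, against 3031 and 1577 CPM in CTR, between the 749 to 1098 CPM of the Unc5d neurons and the 3470.5 to 4404 CPM of the Hs3st4 neurons. Of the 13 layer 6 genes compared with the other Neurod6 neurons, 0 were more than 2-fold higher and 3 lower (Tle4, Zfpm2 and Grik3), with a median log2 ratio of −0.80. Of the genes of newborn and migrating neurons, 13 were compared and 5 were more than 2-fold lower (Eomes, Sema3c, Rnd2, Nrp1 and Neurog2), with a median of −0.61. Among all 8569 genes compared, 0.187% were higher and 1.31% lower, with a median of −0.04. The limits of the rule on Unc5d and Neurod1 left out migrating and newborn neurons, so these values are not independent of it either.

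**Figure D1:**
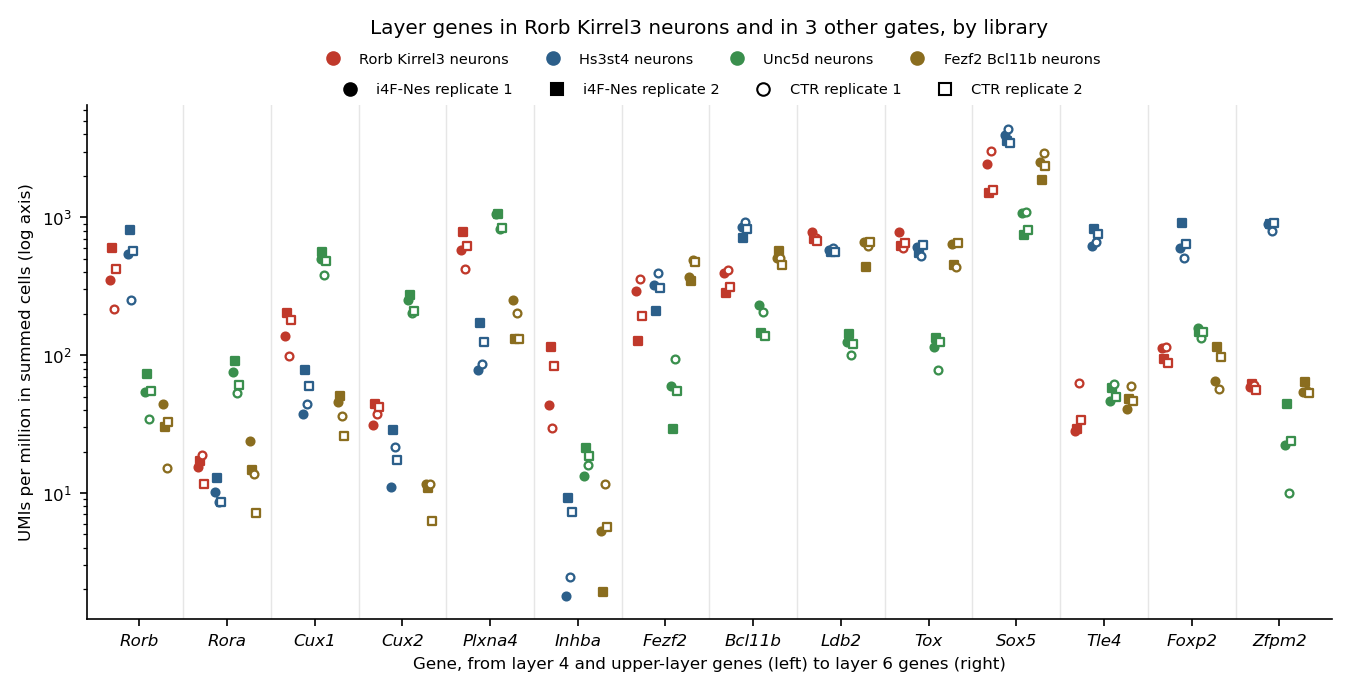
CPM (vertical log axis) of 14 layer genes in the summed cells of 4 gates, with 1 point per library: Rorb Kirrel3 neurons, Hs3st4 neurons, Unc5d neurons and Fezf2 Bcl11b neurons, filled for i4F-Nes and open for CTR. The Rorb Kirrel3 neurons lie between the Unc5d and the Hs3st4 neurons for Plxna4, near the Hs3st4 and Fezf2 Bcl11b neurons for Ldb2 and Tox, and far below the Hs3st4 neurons for Tle4 and Zfpm2.

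The gate with the fewest differences was that of the Fezf2 Bcl11b neurons, which excluded the selected cells. Of 8217 genes compared with it, 18 (0.219%) were more than 2-fold higher in the selected cells in all 4 libraries and 0 (0%) were more than 2-fold lower. The 18 included the upper-layer genes Cux1, Cux2, Inhba and Plxna4, the netrin receptor gene Unc5c and the cadherin genes Cdh10 and Cdh12. Against the Hs3st4 neurons, 58 of 8571 genes (0.677%) were higher and 174 (2.03%) lower. Among the higher ones were 5 layer 2 to 4 genes (Cux1, Pou3f1, Inhba, Plxna4 and Dok5), and 1 of that list was lower (Kitl). Of the layer 5 genes 2 were higher (Nefl and Bcl6) and 4 lower (Bcl11b, Crym, Pcp4 and Lmo3), with a median log2 ratio of −0.12. Of the layer 6 genes 0 were higher and 7 lower. Against the Unc5d neurons, 226 of 8678 genes (2.6%) were higher and 253 (2.92%) lower. Of 36 genes of neuronal maturation and synapses compared there, 16 were higher, among them Syt1, Stmn2, Grin2b, Mapt and Gap43, and 2 were lower, with a median log2 ratio of 0.97. The 16 include Lrrtm3, Sgcz and Ryr3, which were proposed as markers of these cells. Against the Hs3st4 neurons, 34 genes of that list were compared, with 4 higher, 2 lower and a median of −0.19. These gates differ in size, in depth and in the genes that define them, and a library with few cells limits how many genes can pass in all 4 libraries; the Fezf2 Bcl11b gate held 99 to 366 cells per library.

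Among the genes outside the rule, the leading ones over the other Neurod6 neurons were a mixed group. Kcnq5, a potassium channel gene of the M-current family, was at 1805 and 2361 CPM in i4F-Nes cells, against 985 and 1910 CPM in CTR cells, and at 513 and 770.0 CPM in i4F-Nes and 306 and 618 CPM in CTR for the other Neurod6 neurons. Its smallest excess in any library was 3.06-fold. Gucy1a1, a subunit gene of the nitric oxide receptor guanylate cyclase, was at least 3.14-fold higher in each library, and the partner subunit gene Gucy1b1 was also among the 16 genes over 2-fold higher. Nefm, a neurofilament gene, exceeded by at least 2.14-fold, Nrip1, a nuclear receptor corepressor gene, by at least 2.16-fold, and Pde4b, a cAMP phosphodiesterase gene, by at least 2.12-fold. None of the 16 was among the 18 genes over 2-fold higher than in the Fezf2 Bcl11b neurons in all 4 libraries. In that gate Nefm was at 53.4 to 91.7 CPM, against 54.3 to 83.6 CPM in the selected cells. Nrip1 was at 83.5 to 267 CPM there, against 128 to 321 CPM in the selected cells. The genes most reduced were Cntnap5b, at least 9.14-fold lower in each library and highest in the Hs3st4 neurons, and Eomes, the factor of intermediate progenitors, at least 7.05-fold lower. Sox6 and Neurog2 were at least 5.29-fold and 5.08-fold lower.

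The selected cells were not uniform in Bcl11b. To compare detection at 1 depth, cells with at least 6000 UMIs were thinned to 6000, which left out 1 and 37 selected cells in i4F-Nes and 1 and 15 in CTR. Bcl11b was then found in 62.0% (184 of 297) and 44.2% (148 of 335) of the selected cells in i4F-Nes, and in 69.1% (94 of 136) and 47.6% (172 of 361) in CTR. In Hes5 cells, which should lack it, 7.51% and 9.24% in i4F-Nes and 5.57% and 7.97% in CTR held Bcl11b at the same depth. The Hs3st4 neurons held it in 88.3% to 95.9% of cells and the Unc5d neurons in 45.0% to 58.8%. Fezf2 and Bcl11b together were found in 39.4% ± 14.3 of the selected cells in i4F-Nes and 46.9% ± 13.8 in CTR (SD, n = 2 each).

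Of 15 layer 2 to 4 genes, 8 were lower in selected cells with Bcl11b than in those without it in all 4 libraries (Cux1, Pou3f1, Lhx2, Inhba, Plxna4, Epha3, Dok5 and Kitl), 1 was higher (Cdh13), and 6 differed in direction between libraries, Cux2 and Mef2c among them. Of all 8717 genes that averaged 10 CPM or more in the thinned cells, 12.7% were lower and 13.1% higher in all 4 libraries. The values here are CPM in thinned cells, given with no test, and a gene that went undetected in 6000 UMIs may still have been expressed, so the 2 classes are ranges and not types. In cells with Bcl11b, Plxna4 was at 219 and 284 CPM in i4F-Nes, against 239 and 199.6 CPM in CTR. In cells without it, Plxna4 was at 1178 and 1169 CPM in i4F-Nes, against 667 and 971 CPM in CTR. Inhba was at 4.53 and 22.5 CPM in i4F-Nes, against 10.6 and 9.69 CPM in CTR in cells with Bcl11b, and at 118 and 201 CPM in i4F-Nes, compared with 55.6 and 138 CPM in CTR in cells without it. Epha3, an ephrin receptor gene, was at 132 and 123 CPM in i4F-Nes, against 287 and 104 CPM in CTR in cells with Bcl11b, and at 661 and 539 CPM in i4F-Nes, compared with 512 and 559 CPM in CTR in cells without it. Cdh13, a cadherin gene, ran the other way, at 1091 and 726 CPM in i4F-Nes, against 1078 and 818 CPM in CTR in cells with Bcl11b, and at 546 and 485 CPM in i4F-Nes, compared with 579 and 313 CPM in CTR in cells without it.

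Of the layer 5 genes other than Bcl11b, 8 of 13 were higher in cells with Bcl11b in all 4 libraries and 1 was lower (Bcl6), and of the layer 6 genes 9 of 13 were higher and 1 was lower (Ntsr1). Fezf2 and Sox5 stand in both lists. Tbr1, a factor of layer 6 neurons, was among those whose direction differed between libraries. Fezf2 was at 385 and 244 CPM in i4F-Nes, against 493 and 321 CPM in CTR in cells with Bcl11b. In cells without it, Fezf2 was at 124 and 62.4 CPM in i4F-Nes, against 167 and 88.2 CPM in CTR. Sox5 was at 3340 and 2858 CPM in i4F-Nes, against 3814 and 2766 CPM in CTR in cells with Bcl11b, and at 1339 and 802 CPM in i4F-Nes, compared with 1567 and 769 CPM in CTR in cells without it. Foxp2 was at 198 and 238 CPM in i4F-Nes, against 183 and 211 CPM in CTR in cells with Bcl11b, and at 28.0 and 16.0 CPM in i4F-Nes, compared with 47.6 and 18.5 CPM in CTR in cells without it. Bcl6, a transcriptional repressor gene, was lower in cells with Bcl11b, at 65.2 and 57.4 CPM in i4F-Nes, against 62.1 and 44.6 CPM in CTR, than in cells without it, at 177 and 197 CPM in i4F-Nes, compared with 198 and 187 CPM in CTR.

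The marker genes were not spread evenly over the classes either. Sgcz was at 315 and 329 CPM in i4F-Nes, against 223 and 284 CPM in CTR in cells with Bcl11b, and at 32.4 and 14.3 CPM in i4F-Nes, compared with 15.9 and 41.4 CPM in CTR in cells without it. Rorb itself was at 502 and 894 CPM in i4F-Nes, against 314 and 729.7 CPM in CTR in cells with Bcl11b, and at 254 and 422 CPM in i4F-Nes, compared with 190.5 and 269 CPM in CTR in cells without it. Ldb2 and Foxp1 varied less. Foxp1 was at 698 and 714 CPM in i4F-Nes, against 663 and 602 CPM in CTR in cells with Bcl11b, and at 758 and 692 CPM in i4F-Nes, compared with 528 and 573 CPM in CTR in cells without it. Rorb was thus higher in the cells with Bcl11b in each library. Of the layer 4 genes other than Rorb, 4 (Rora, Unc5d, Kcnh5 and Nectin3) were lower there in all 4 libraries, and 4 differed in direction. The rule set an upper limit on Unc5d in every selected cell. Its remaining counts are therefore not independent of the selection and cannot serve as a measure of layer 4 character.

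**Figure D2:**
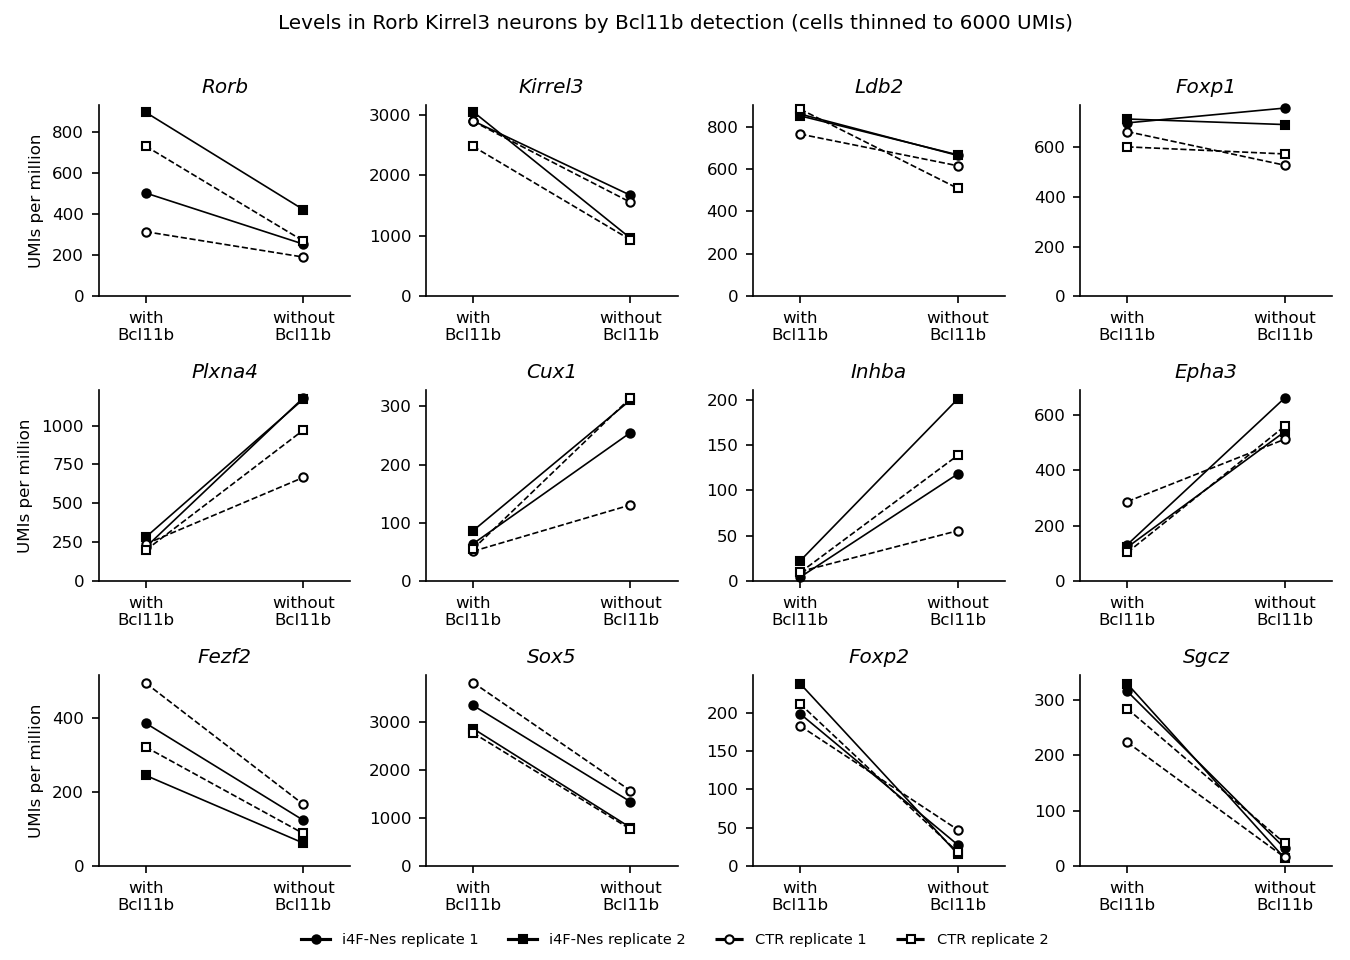
CPM (vertical axes from 0) of 12 genes in Rorb Kirrel3 neurons thinned to 6000 UMIs, split on the horizontal axis into cells with and without Bcl11b; each line is 1 library, filled and solid for i4F-Nes, open and dashed for CTR. Plxna4, Cux1, Inhba and Epha3 are lower and Fezf2, Sox5, Foxp2, Sgcz, Rorb, Kirrel3 and Ldb2 higher in the cells with Bcl11b in all 4 libraries, while Foxp1 stays between 528 and 758 CPM.

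Just inside and just outside the limit on Rorb, Bcl11b and Ldb2 were at near levels. Cells just inside with 2 Rorb UMIs made up 27.2% and 16.1% of the selected cells in i4F-Nes and 32.1% and 22.3% in CTR. Their Bcl11b level was 284 and 181 CPM in i4F-Nes and 359 and 152 CPM in CTR, and the level in cells just outside, with 1 Rorb UMI, was 277 and 165 CPM in i4F-Nes and 369 and 183 CPM in CTR. Selected cells with 3 or more Rorb UMIs had more Bcl11b than those with 2 in each library. It was at 436 and 301 CPM in i4F-Nes and 441 and 359 CPM in CTR. Ldb2 was at 699.9 and 557 CPM in i4F-Nes, against 708 and 638 CPM in CTR just inside, and at 690.4 and 514 CPM in i4F-Nes, compared with 686 and 569.8 CPM in CTR just outside. Cells that met the rest of the rule with no Rorb UMI numbered 262 and 265 in i4F-Nes and 447 and 373 in CTR. Their Ldb2 was at 655 and 584 CPM in i4F-Nes, against 624 and 551 CPM in CTR. Their Fezf2 was at 212 and 128 CPM in i4F-Nes, against 353 and 215 CPM in CTR. Their Bcl11b was at 225 and 178 CPM in i4F-Nes, against 301 and 134 CPM in CTR. These genes were thus not confined to cells with Rorb, though Ldb2 and Bcl11b were lower than in the selected cells. Few selected cells had only 2 Kirrel3 UMIs (8 and 33 in i4F-Nes, 5 and 17 in CTR).

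The first question on the groups was whether Rorb Kirrel3 neurons were more or less frequent in i4F-Nes. They made up 3.67% (95% exact binomial interval 3.27 to 4.10) and 5.37% (4.85 to 5.92) of the barcodes that passed the limits in i4F-Nes, and 2.12% (1.79 to 2.50) and 5.25% (4.75 to 5.79) in CTR. The groups overlapped, with CTR replicate 1 lowest, and the means were 4.52% ± 1.20 in i4F-Nes and 3.69% ± 2.21 in CTR (SD, n = 2 each; exact two-sided permutation p = 0.667). Of the Neurod6 neurons they were 7.61% and 10.1% in i4F-Nes and 4.38% and 8.55% in CTR, with means of 8.87% ± 1.79 in i4F-Nes and 6.47% ± 2.95 in CTR (SD, n = 2 each; exact two-sided permutation p = 0.667). With 2 libraries per group the smallest p this test can give is 0.333. The intervals cover counting error only, and the spread between the 2 CTR libraries was larger than the difference between the groups. Without CTR replicate 1 the difference in the share of all barcodes changed sign, and without i4F-Nes replicate 2 it was near 0.

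The make-up in Bcl11b did not separate the groups either. The share of thinned selected cells with Bcl11b averaged 53.1% ± 12.6 in i4F-Nes and 58.4% ± 15.2 in CTR (SD, n = 2 each), and the libraries of the groups overlapped. Replicate 2 of both groups had a smaller share with Bcl11b than replicate 1 of both groups.

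**Figure D3:**
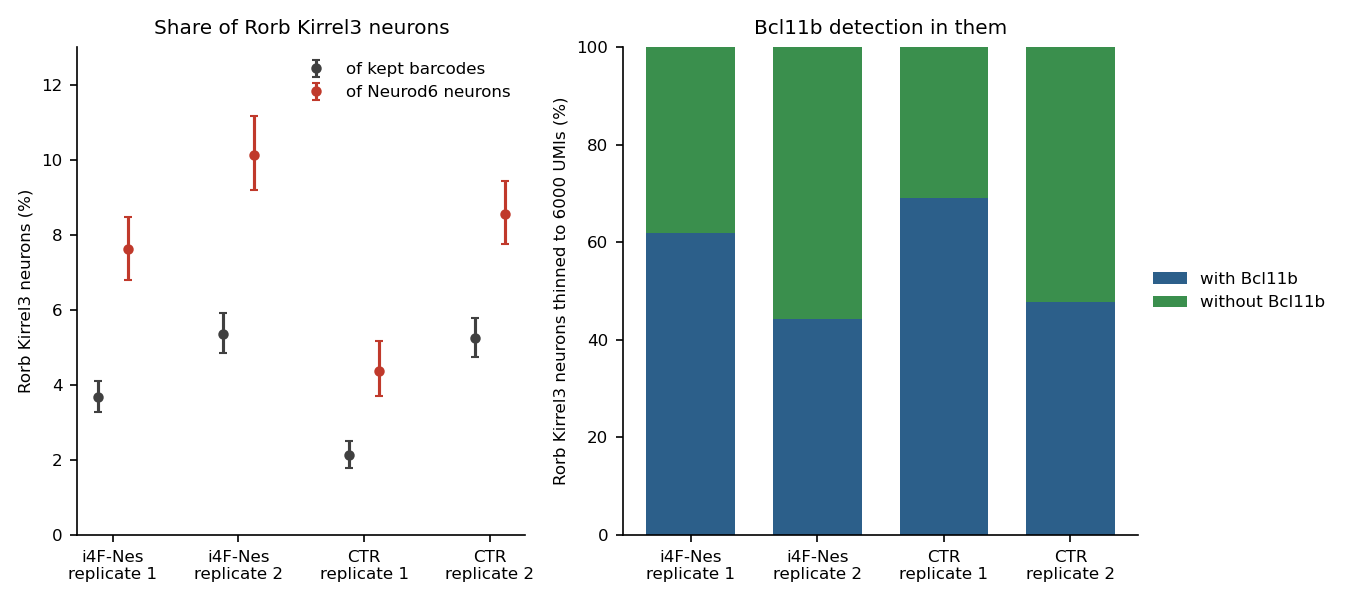
Left, Rorb Kirrel3 neurons in percent of the barcodes that passed the limits and of the Neurod6 neurons in each library, with 95% exact binomial intervals; right, percent of Rorb Kirrel3 neurons thinned to 6000 UMIs with and without Bcl11b. The i4F-Nes libraries lie at 3.67% and 5.37% of barcodes and overlap the CTR libraries at 2.12% and 5.25%.

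Gene levels were then compared between i4F-Nes and CTR on the UMIs summed over the selected cells of each library, 5860798 and 6365352 in i4F-Nes and 2936205 and 7119783 in CTR. No gene passed. Of 12169 genes tested with edgeR's quasi-likelihood test, 0 (0%) had a Benjamini-Hochberg adjusted p under 0.05. At an unadjusted p under 0.05 there were 88 (0.723%), 68 of them higher and 20 lower in i4F-Nes, and DESeq2 also called 0, with 70 at an unadjusted p under 0.05. The count depended on the libraries: it was 19 without i4F-Nes replicate 1, 2 without i4F-Nes replicate 2, 0 without CTR replicate 1 and 6 without CTR replicate 2. Among the 19 were the haemoglobin genes Hba-a1, Hba-a2, Hbb-bs and Hbb-bt, and 4 of the 6 were the sex-linked genes Xist, Eif2s3y, Kdm5d and Uty.

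The counts of the reprogramming factors were low in the selected cells, collected 1 day after doxycycline ended. Whether these counts, made on mm10, include RNA of the i4F cassette was not tested. Pou5f1 had 10 and 14 UMIs (1.71 and 2.20 CPM) in i4F-Nes and 4 and 5 UMIs (1.36 and 0.702 CPM) in CTR. The log2 fold change was 1.03 ± 0.663 (SE; edgeR adjusted p = 1.00). Sox2 was at 5.29 and 2.20 CPM in i4F-Nes, against 13.3 and 1.69 CPM in CTR (−0.85 ± 0.952), and its sign changed without CTR replicate 1. Myc was at 28.7 and 17.1 CPM in i4F-Nes, against 28.3 and 17.1 CPM in CTR (0.03 ± 0.309). Klf4, with 9 and 2 UMIs in i4F-Nes and 8 and 10 in CTR, was too low to be tested. Of 19 pluripotency genes 10 were at 0 in all libraries and 3 could be tested, with none passing.

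The genes nearest to a difference had an unadjusted p under 0.05, groups that did not overlap and a mean of at least 50 CPM. There were 12, of which 11 stood higher and 1 lower in i4F-Nes. Beside this, 12% of 8038 genes with at least 10 CPM in every library had both i4F-Nes libraries above both CTR libraries, and 7.85% had both below. Lsamp, which encodes a cell adhesion protein of the limbic system (chromosome 16, 39984361 to 42181679), was at 920.4 and 1556 CPM in i4F-Nes, against 623 and 775 CPM in CTR. Its log2 fold change was 0.82 ± 0.319 (SE, n = 2 per group; edgeR adjusted p = 1.00), and it was 0.33 without i4F-Nes replicate 2. Within the thinned cells with Bcl11b, Lsamp was at 596 and 964 CPM in i4F-Nes, against 566 and 546 CPM in CTR. Within those without Bcl11b it was at 1665 and 2254 CPM in i4F-Nes, against 873 and 1029 CPM in CTR. Lsamp was named because its groups did not overlap, so this split of the same cells adds no support. In interneurons selected on Gad2, Lsamp was at 544 and 805 CPM in i4F-Nes, against 219 and 360 CPM in CTR. The direction was thus not particular to the Rorb Kirrel3 neurons.

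Sdk1, a sidekick adhesion gene of neurons, was at 107 and 129.9 CPM in i4F-Nes, against 59.9 and 87.4 CPM in CTR (0.66 ± 0.244), and its log2 fold change was 0.38 without CTR replicate 1 and 1.03 without CTR replicate 2. Flrt3, a guidance receptor gene, was the one that stood lower, at 42.0 and 50.4 CPM in i4F-Nes, against 69.8 and 58.3 CPM in CTR (−0.47 ± 0.178). Kcnt2, a potassium channel gene, was at 85.0 and 89.4 CPM in i4F-Nes, against 64.0 and 64.0 CPM in CTR (0.43 ± 0.151). Kcnd2, also a potassium channel gene, was at 107 and 112 CPM in i4F-Nes, against 80.0 and 81.0 CPM in CTR (0.42 ± 0.157), and the value was 0.17 with the looser gate of at least 1 UMI of Rorb and Kirrel3. The others were Lratd1 (0.66 ± 0.167), Btbd11 (0.62 ± 0.168), Mgat4c, a glycosyltransferase gene (0.56 ± 0.207), Pik3r1, a phosphoinositide 3-kinase subunit gene (0.52 ± 0.189), Frmpd4, a scaffold gene of synapses (0.51 ± 0.165), Lhfp (0.43 ± 0.155) and Gnal, a G protein subunit gene (0.41 ± 0.144). All 12 had an adjusted p of 1.00 in edgeR's test without a replicate block. With the replicate number as a block, edgeR called 229 genes and all 12 were among them, with adjusted p between 3.36e-06 and 0.0282, but the labels do not tie equal numbers together.

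**Figure D4:**
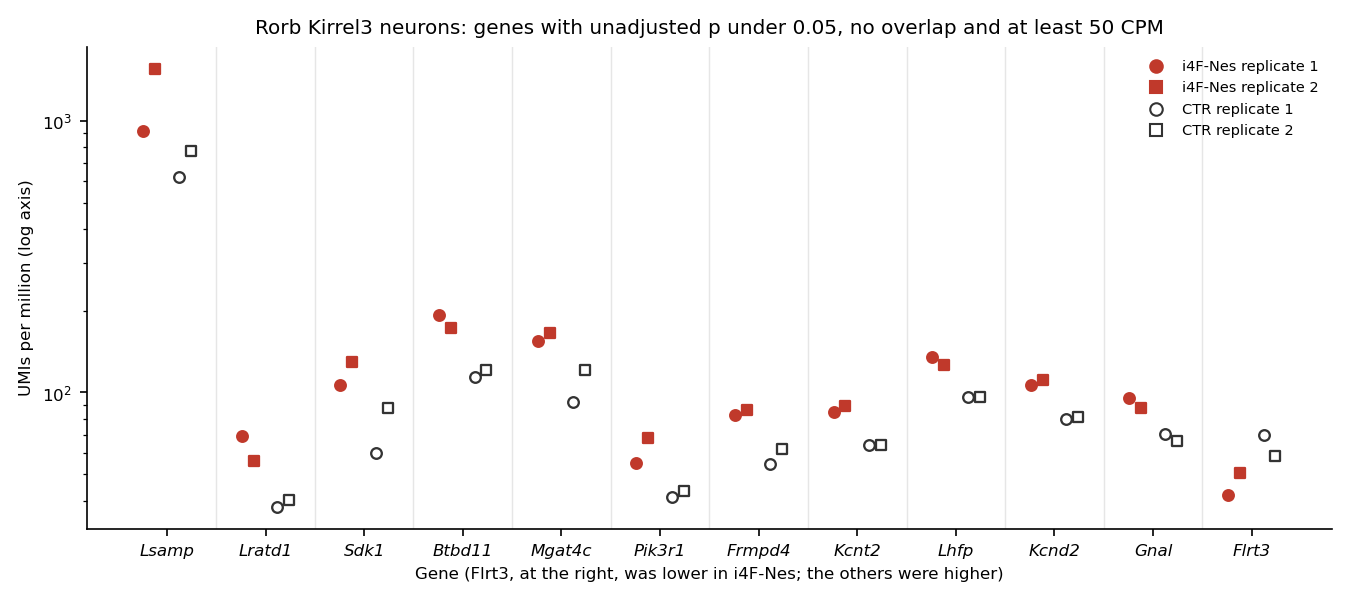
CPM (vertical log axis) of the 12 genes in the Rorb Kirrel3 neurons of each library, with i4F-Nes filled at the left of each column and CTR open at the right. The groups do not overlap for any of the 12, which was a condition for showing them, and 0 of the 12 passed the adjusted threshold.

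Layer genes showed no shift that passed. Fezf2 differed by −0.42 ± 0.433, Bcl11b by −0.11 ± 0.226, Ldb2 by 0.08 ± 0.195 and Rorb by 0.55 ± 0.425 in log2 of i4F-Nes over CTR (SE; all adjusted p = 1.00 in edgeR's test), and for each of them the libraries of the groups overlapped. Rorb was used in the selection, so its level is bounded below by the rule in both groups. Tle4 (−0.74 ± 0.267) and Pcp4 (−1.06 ± 0.265), a calmodulin regulator gene, were the layer genes of the layer 5 and layer 6 lists with an unadjusted p under 0.05. Pcp4 was at 7.68 and 7.23 CPM in i4F-Nes, against 17.4 and 13.8 CPM in CTR. The layer 2 to 4 list had 10 of 15 genes with a positive and 5 with a negative fold change, with a median of 0.12. The layer 4 list had 9 of 12 tested genes with a positive one and a median of 0.16, the layer 5 list 8 of 17 and a median of −0.09, and the layer 6 list 8 of 16 and a median of −0.09, beside a median of 0.00 over all genes tested. In the main fit, no gene of the 22 lists passed in either direction.

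Genes of a cell population found in the i4F-Nes libraries, listed from earlier results on these data, were present at low levels in the selected cells. Crabp2, a retinoic acid binding protein gene, had 39 and 23 UMIs in i4F-Nes and 1 and 1 in CTR, a ratio of 25.5 (counting interval 6.77 to 215) after allowing for the summed UMIs. Lgals7, a galectin gene, was at 10.7 and 9.90 CPM in i4F-Nes, against 4.77 and 5.48 CPM in CTR. In the other Neurod6 neurons the same genes were higher, with Crabp2 at 12.9 and 19.8 CPM in i4F-Nes, against 0.606 and 0.682 CPM in CTR. The list of 25 such genes, of which Krt18 was at 0, summed to 53.9 and 58.9 CPM in the selected cells of i4F-Nes and to 29.3 and 34.7 CPM in those of CTR. Of 8 that could be tested 0 passed in the main fit, and both genes were singled out after their values were seen. The log2 fold change of Crabp2 was 4.48 ± 0.753 (SE; edgeR unadjusted p = 0.000535). Without the filter on low counts, Crabp2 passed the adjusted threshold. Whether these UMIs come from the cells themselves or from free RNA was not tested.

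Finally, the response to i4F-Nes was compared between the Rorb Kirrel3 neurons and the other Neurod6 neurons, by a test of the difference itself in edgeR with the library as a block. Of 15372 genes, 5 passed, all with a more negative difference between i4F-Nes and CTR in the Rorb Kirrel3 neurons (0.0325%). For each, both i4F-Nes libraries stood above both CTR libraries in the other Neurod6 neurons. In the Rorb Kirrel3 neurons the groups overlapped for 4 of the 5, and for Pcp4 both i4F-Nes libraries stood below both CTR libraries. Nrxn3, a presynaptic neurexin gene (chromosome 12, 88722876 to 90334935), was at 11.9 and 22.6 CPM in i4F-Nes, against 20.8 and 18.0 CPM in CTR in the Rorb Kirrel3 neurons, where the groups overlapped. In the other Neurod6 neurons it was at 58.1 and 117 CPM in i4F-Nes, against 36.9 and 26.5 CPM in CTR. The log2 difference of response was −1.63 ± 0.162 (edgeR adjusted p = 2.99e-08). Pcp4, at 84.0 and 92.5 CPM in i4F-Nes, against 65.4 and 74.4 CPM in CTR in the other Neurod6 neurons, gave −1.29 ± 0.191 (edgeR adjusted p = 0.000261). Interneurons selected on Gad2 held far more Nrxn3, at 13872 to 21750 CPM over the 4 libraries. The part of free RNA from such cells in the Nrxn3 levels above was not tested.

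Tafa1, a secreted chemokine-like protein gene, rested on few UMIs in the Rorb Kirrel3 neurons, 2 and 35 in i4F-Nes and 1 and 20 in CTR. In the other Neurod6 neurons it was at 4.32 and 21.3 CPM in i4F-Nes, against 0.104 and 0.701 CPM in CTR, and the difference of response was −4.15 ± 0.582 (edgeR adjusted p = 0.000103). Tafa1 is 1 of the 25 listed genes of the i4F-Nes population described above. Of the remaining 24, 23 had both i4F-Nes libraries above both CTR libraries in the other Neurod6 neurons, with none at 0. In the Rorb Kirrel3 neurons 11 of the 24 had that pattern and 1 had both i4F-Nes libraries below. The list was drawn from earlier results on these data, so these counts add no support. The share of all genes with that pattern was not taken in the other Neurod6 neurons. There the 24 summed to 111 and 202 CPM in i4F-Nes, against 40.6 and 32.0 CPM in CTR. In the Rorb Kirrel3 neurons the same 24 summed to 53.6 and 53.4 CPM in i4F-Nes, against 28.9 and 31.9 CPM in CTR. Their part in the difference of response was not tested. Necab1, a calcium binding protein gene, gave −1.02 ± 0.193 and Gria4, an AMPA receptor subunit gene, −0.52 ± 0.105, both just inside the threshold (edgeR adjusted p = 0.0479 each). The other Neurod6 neurons are a mixture of layers and ages, and their make-up can differ between the groups. In the 2 populations the same libraries enter, so their values share a source. The number of genes past the threshold was 0 with the looser gate and 141 without i4F-Nes replicate 1, and none of the 5 passed without CTR replicate 2. Nrxn3 and Tafa1 alone passed with DESeq2 and without the highest doublet scores.

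**Figure D5:**
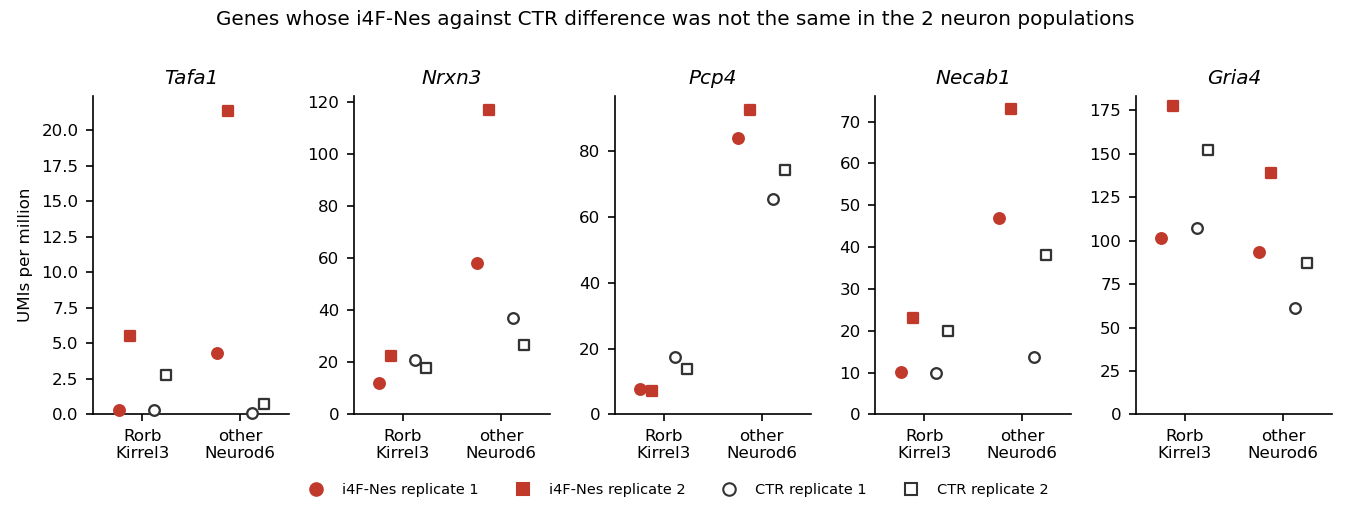
CPM (vertical axes from 0) of the 5 genes in the Rorb Kirrel3 neurons (left of each panel) and the other Neurod6 neurons (right), with 1 point per library, i4F-Nes filled and CTR open. In the other Neurod6 neurons both i4F-Nes points lie above both CTR points for all 5 genes, while in the Rorb Kirrel3 neurons the groups overlap for 4 genes and the i4F-Nes points lie below the CTR points for Pcp4.

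Many genes of the Rorb Kirrel3 neurons differed between replicate numbers in the same direction in both groups. Of 8038 genes with at least 10 CPM in every library, 3433 (42.7%) had both replicate 1 libraries above both replicate 2 libraries. For 1753 (21.8%) both replicate 1 libraries were below both replicate 2 libraries. With more than 1.5-fold between the nearest libraries of the 2 numbers, there were 136 and 58 such genes. Ryr3, Fezf2 and Sox5 were higher in replicate 1 of both groups, and Rorb, Inhba and Mef2c, an activity-dependent factor gene at 1099.7 and 1637 CPM in i4F-Nes, against 918 and 1566 CPM in CTR, were lower there. The labels give the replicate numbers no meaning beyond a name, and nothing in them says that equal numbers mark a shared day, litter or run.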

How the data were processed

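Libraries were made from dissociated rostral neocortex with the 10x Genomics 3′ v3.1 chemistry, per the labels' protocols. The deposited matrices hold UMI counts as whole numbers, 1 matrix per library, made by the authors with cellranger 7.0.1 per the file headers, on mm10 per the submitters' processing notes. Whether intronic reads were counted is not given in the sources used here.

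Barcodes were kept with at least 1000 UMIs, 500 genes and at most 10% mitochondrial UMIs. The members and gene lists were chosen with earlier results of these data known. UMI counts of the selected cells were summed per library and tested with edgeR 4.0.16 (quasi-likelihood F-test, TMM, filterByExpr, Benjamini-Hochberg at 0.05; SE from the fold change and F), with DESeq2 1.42.0 as the other tool, and the script was tested on simulated data. The difference of response was the interaction term of a fit over both populations, blocked by library. Shares were compared with an exact permutation test and given Clopper-Pearson intervals. Levels are CPM without TMM. Ratios to other gates used log2(CPM + 1) over genes with at least 10 CPM in every library of either population, without the genes of the rule. Doublets were scored with Scrublet in scanpy 1.11.5 and kept. Coordinates are GENCODE M21 on GRCm38. Group-comparison genes were named by adjusted p, then by unadjusted p under 0.05, no overlap and at least 50 CPM. The leading genes over other neurons had at least 50 CPM and the largest ratio in the library where it was smallest. Results on 1 gene of the layer lists, and a share of cells that rests on it, are not reported here. The split of the selected cells by Bcl11b was chosen after the values were seen.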

Additional observations from a re-analysis of the deposited data

Results flagged for a closer look

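For 5 genes the difference between i4F-Nes and CTR was not the same in Rorb Kirrel3 neurons as in the other Neurod6 neurons, by edgeR's test of the difference itself. The log2 difference of response was −4.15 for Tafa1, −1.63 for Nrxn3, −1.29 for Pcp4, −1.02 for Necab1 and −0.52 for Gria4, each more negative in the Rorb Kirrel3 neurons. Over 10 alternatives, Tafa1 passed in 8, Nrxn3 in 7, Pcp4 in 6, Necab1 in 4 and Gria4 in 3, and the sign held in all 10 for each. Groups of 2 libraries are too small to single out a library within a group.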

How the results depend on the processing

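With all 4 libraries, 0 genes passed between i4F-Nes and CTR in the Rorb Kirrel3 neurons. The count stayed at 0 with the stricter gate, the looser gate, doublets removed, no TMM and DESeq2. It was 8 without the filter on low counts (6 higher, Crabp2 among them, and 2 lower). With 1 library left out it ran between 0 and 19; a group of 1 library is then assumed to vary like the other group. With the replicate number as a block it was 229 (170 higher, 59 lower). Replicates with the same number deviated together (r = 0.556 over 12169 genes), but with 2 pairs and no label that ties the numbers together they share only a number, and all 12 genes named in the group comparison passed in that fit alone. For the difference of response, 5 genes passed with the main settings, 36 with the stricter gate, 0 with the looser gate, 2 without high doublet scores, 16 without the count filter, 2 with DESeq2, 7 with a replicate block (Tafa1 and Pcp4 of the 5 among them), and between 2 and 141 with 1 library left out. The difference in the share of all barcodes, 0.83 percentage points, ran between −0.73 and 2.40 with 1 library left out. As a replicate block it was again 0.83 points. Sox2 ran between −1.80 and 1.06 with 1 library left out. Myc was at −0.20 with the stricter gate, −0.11 with the looser gate and −0.00200 with the replicate block, and between −0.34 and 0.35 with 1 library left out. The causes were not tested. Of 252 results under an alternative, 197 were classed as the same. For single genes and shares this meant the same direction and side of the threshold. For counts of genes it meant an equal or near count, such as 7 beside 5. The shares could not reach the threshold in this design, and many of the single genes did not pass in the main fit either. The smallest sum was that of CTR replicate 1, 2936205 UMIs from 137 cells, and without it the counts were 0 and 5.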

Other observations

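Nuclear receptors other than Rorb were described as levels in the Rorb Kirrel3 neurons. Thra, a thyroid hormone receptor gene, was at 682 and 637 CPM in i4F-Nes, compared with 679 and 665 CPM in CTR, above the 270.3 to 375 CPM of the Unc5d neurons. Nr2f1, a factor graded across the cortex, was at 66.9 and 77.1 CPM in i4F-Nes, compared with 113 and 62.6 CPM in CTR, and the groups overlapped. Immediate early genes summed to 821 and 558 CPM in i4F-Nes, compared with 1044 and 589 CPM in CTR, and 0 of the 15 tested passed.

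Some genes below 50 CPM stood apart between the groups and were chosen after their values were seen. Igsf21, an adhesion gene of synapses, was at 17.7 and 19.3 CPM in i4F-Nes, compared with 9.54 and 8.57 CPM in CTR. Chrm2, a muscarinic receptor gene, was at 14.2 and 17.6 CPM in i4F-Nes, compared with 8.17 and 6.60 CPM in CTR. Eomes, though low in these cells, was at 5.46 and 7.86 CPM in i4F-Nes, compared with 1.02 and 2.11 CPM in CTR. Reln, an extracellular matrix gene of Cajal-Retzius cells, was at 10.9 and 7.07 CPM in i4F-Nes, compared with 11.2 and 22.3 CPM in CTR. None passed with edgeR (adjusted p = 1.00 each).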
